A study of Heterocephalus glaber with 2 samples.

Results

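The genes described here are the guidance cues (semaphorins, ephrins, netrins and Slits) and their receptors (plexins, neuropilins, Eph, Unc5 and Robo receptors) in skin fibroblasts of the naked mole-rat (NMR), called NSFs. They were matched by gene symbol, and 69 of the 37520 genes in the expression tables matched. RNA was sequenced from 1 library of shβ-catenin NSFs, carrying a lentiviral hairpin against the mRNA of β-catenin, and 1 library of shControl NSFs, carrying the empty vector. Both were primary cultures from adult skin, transduced with lentivirus, selected with puromycin and replated before RNA extraction. The libraries were made to look for genes that link β-catenin with lipid storage in these cells. The control vector holds no hairpin and a single hairpin was sequenced, so effects of β-catenin loss and of that hairpin cannot be told apart. As each condition was sequenced once, no replicate error or test can be given, and every fold-change below compares these libraries only.

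Guidance cues were named for steering axons, and most tissues use them to control adhesion, migration and the borders between cell groups. Class 3 semaphorins are secreted and bind neuropilins, which pass the signal to plexins, whereas the other vertebrate classes are mostly anchored in the membrane and bind plexins directly. Eph receptors are receptor tyrosine kinases that meet ephrins on neighbouring cells, and both partners can signal. Netrins are secreted, laminin-related proteins that bind *Dcc*, neogenin and Unc5 receptors, and Slits bind Robo receptors. In the mouse intestine, *Ephb2* and *Ephb3* are activated and *Efnb1* is held down by β-catenin with TCF factors.

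Levels are given as FPKM (fragments relative to the exon length of the gene and the mapped fragments of the library), so that genes within a library can be compared. The targeted gene, *Ctnnb1*, was listed at 69.0 FPKM in shβ-catenin cells and 530 FPKM in shControl cells, a 7.69-fold lower value. Fibroblast markers summed to 9355 FPKM in shβ-catenin and 11604 FPKM in shControl cells, and of the 16 with a mean of 1 FPKM or more (of 18), 5 were higher and 11 lower. *Vim*, a filament protein of mesenchymal cells, stood at 2804 and 3363 FPKM, and *Col6a1*, a collagen VI chain, was 2.09-fold lower. *Dcn*, a matrix proteoglycan typical of fibroblasts, was low at 2.42 and 0.316 FPKM (7.67-fold higher), and *Fap* was 2.15-fold higher. All 3 endothelial markers with a mean of 1 FPKM or more (of 14 measured) and all 4 such leukocyte markers (of 15) were higher in shβ-catenin cells. At that level 6372 of all 13097 genes were higher. *Dcn*, *Pecam1* and *Fcer1g* (1.70 and 0.670 FPKM) were under 1 FPKM in shControl cells, so the filter fixed their direction. Among leukocyte markers below the filter, *Tyrobp* (0.498 and 0.828 FPKM) and *Cd79a* (0 and 0.0856 FPKM) were lower, and the others above 0 were higher. The endothelial list summed to 32.9 FPKM in shβ-catenin and 17.5 FPKM in shControl cells, most of it *Flt1*, and all 9 of its genes above 0 in a library were higher in shβ-catenin cells. Of these 9, 6 were at most 0.183 FPKM. Among all 5649 genes with a mean under 1 FPKM and above 0 in both libraries, 63.5% were higher in shβ-catenin cells. In all, 20648 genes were above 0 in shβ-catenin and 20198 in shControl cells. *Pecam1*, a defining endothelial gene, was listed at 2.08 and 0.275 FPKM (7.55-fold higher). *Cdh5* (0.0680 FPKM) and *Erg* (0.183 FPKM) were listed above 0 in shβ-catenin cells alone, and *Tek*, *Tie1* and *Emcn* were listed at 0 in both libraries. The leukocyte list summed to 213 and 74.3 FPKM, nearly all of it from *Lyz*, *Cd14* and *Cd68*, with *Ptprc*, the pan-leukocyte antigen, listed at 0. Neuron markers summed to 146 and 164 FPKM (5 of 14 with a mean of 1 FPKM or more), mostly *Tubb3* (85.0 and 82.2 FPKM) and *Gap43* (49.8 and 71.8 FPKM). Schwann cell markers summed to 15.8 and 19.99 FPKM (4 of 10), with *S100b* and *Mag* listed at 0. *Cdh19*, a gene of the Schwann lineage, went against that sum at 1.22 and 0.0779 FPKM (15.6-fold higher). Keratinocyte markers summed to 23.7 and 41.5 FPKM (3 of 13, with *Krt5* and *Krt1* listed at 0). Most of this came from *Krt18* (7.21 and 22.6 FPKM, 3.13-fold lower) and *Dsp* (14.7 and 17.6 FPKM). Melanocyte markers summed to 20.9 and 16.6 FPKM (4 of 8), and pericyte and smooth muscle markers to 2190 and 3125 FPKM (4 of 10, mostly *Tagln* and *Acta2*). All 4 pericyte and smooth muscle markers past the filter were lower in shβ-catenin cells, as were 6725 of all 13097 genes. *Cnn1* was 2.49-fold lower, at 2.29 and 5.72 FPKM. The part of other cell types in the differences below was not tested, and in bulk RNA fewer cells of a type and less RNA per cell cannot be told apart. A listed 0 does not show absence, since *Ywhaz*, which nearly all cells use, was listed at 0 in both libraries.

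Of the 69 guidance genes, 6 were listed at 0 in both libraries, 5 in 1 library and 20 were above 0 in both with a mean under 1 FPKM. The other 38 had a mean of 1 FPKM or more, and each of these reached 1 FPKM in both libraries, so none passed through its higher library alone. Together the 69 genes made up 0.137% of all FPKM in shβ-catenin cells and 0.123% in shControl cells. A level of 10 FPKM was reached by 17 genes in both libraries. *Sema6a* reached it in shβ-catenin cells alone and *Slit2* in shControl cells alone. The most abundant gene in each library was *Nrp1*, followed by *Ntn1* and *Plxnb2* in shβ-catenin cells and by *Plxnb2* and *Ntn1* in shControl cells.

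**Figure D1:**
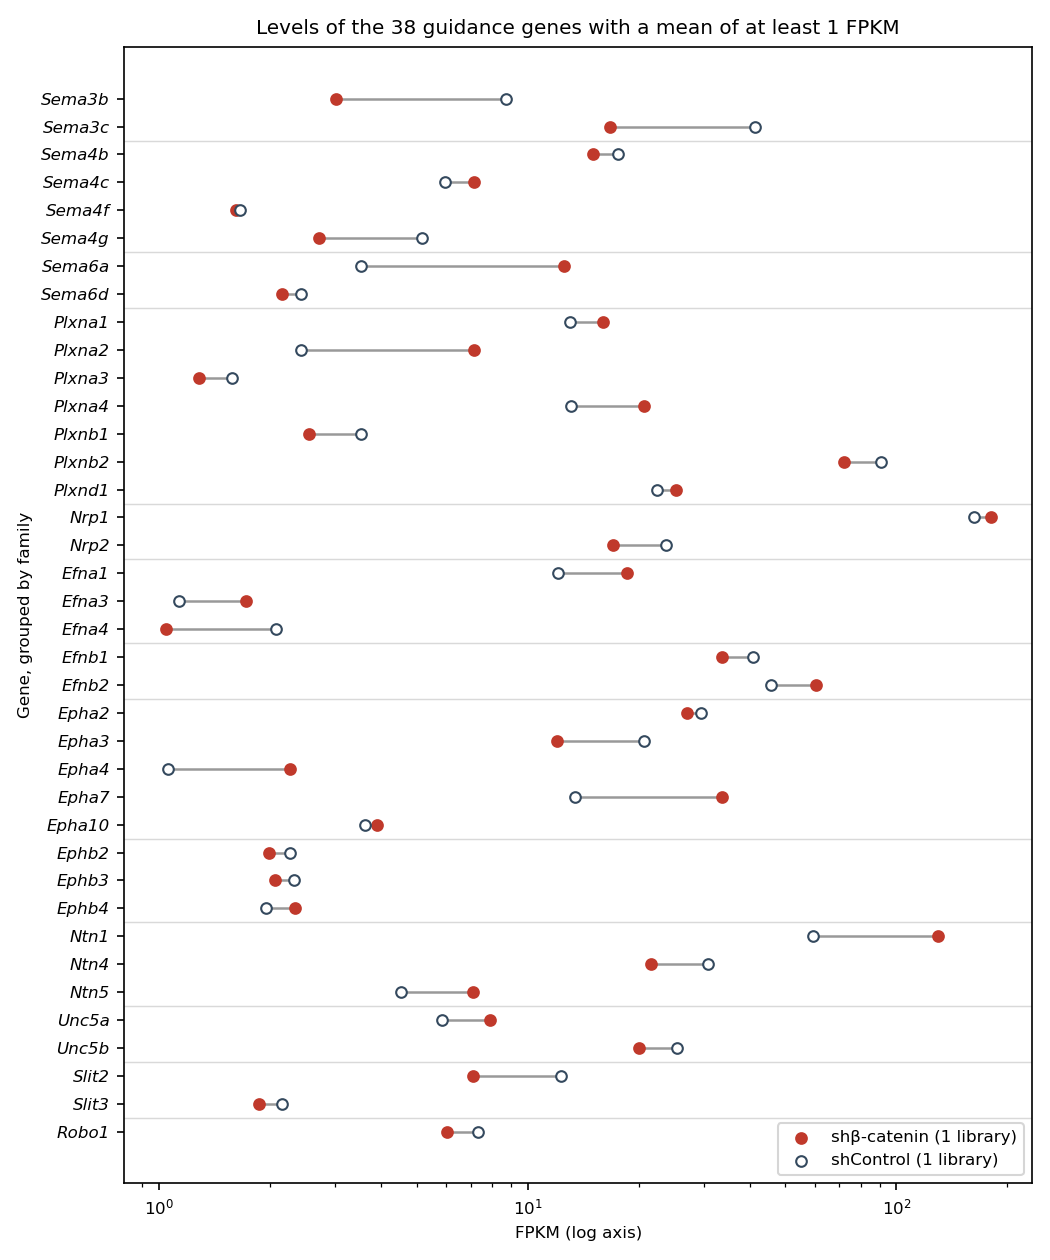
FPKM on a log axis of the 38 guidance genes with a mean of 1 FPKM or more, filled points for the shβ-catenin library and open points for the shControl library, with families parted by lines. *Sema6a*, *Plxna2*, *Epha7* and *Ntn1* lie further right in shβ-catenin cells, and *Sema3b* and *Sema3c* further left.

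More than 2-fold higher in shβ-catenin cells were 5 of these 38 genes, *Sema6a*, *Plxna2*, *Epha7*, *Ntn1* and *Epha4*. More than 2-fold lower were 2, *Sema3b* and *Sema3c*. Calls were made on log2 of (shβ-catenin + 0.1) / (shControl + 0.1), which understates the change of low genes, whereas folds in the text are plain FPKM ratios. Over all 13097 genes with a mean of 1 FPKM or more, 3.27% were more than 2-fold higher and 2.05% more than 2-fold lower, against 13.2% and 5.26% of the guidance genes. None of the 38 differed by more than 4-fold, the threshold of the study, which 0.680% of all genes passed upward and 0.206% downward. In all, 17 guidance genes were higher and 21 lower. Their median log2 fold-change was -0.14, beside -0.01 for all genes. Over the 24 guidance genes with a mean of 5 FPKM or more this median was 0.02, so it gives the group no direction. Over the 63 above 0 in a library it was 0.15. These take in low genes, and of all 5649 genes under 1 FPKM and above 0 in both libraries 63.5% were higher in shβ-catenin cells. An unfiltered median over all genes is not given here.

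Fold-changes past 2 were more frequent among low genes, so the calls were also read within ranges of mean FPKM. At 20 FPKM or more, 3 of 12 guidance genes (*Sema3c*, *Epha7* and *Ntn1*) were past 2-fold in either direction, beside 2.67% of all genes at that level. From 5 to 20 FPKM, 2 of 12 (*Sema3b* and *Sema6a*) were, beside 2.74% of all genes. From 1 to 5 FPKM, where 11.7% of all genes were past 2-fold, 2 of 14 were (*Plxna2* and *Epha4*). These shares describe these libraries and this choice of genes, which was made with earlier results of the data known.

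**Figure D2:**
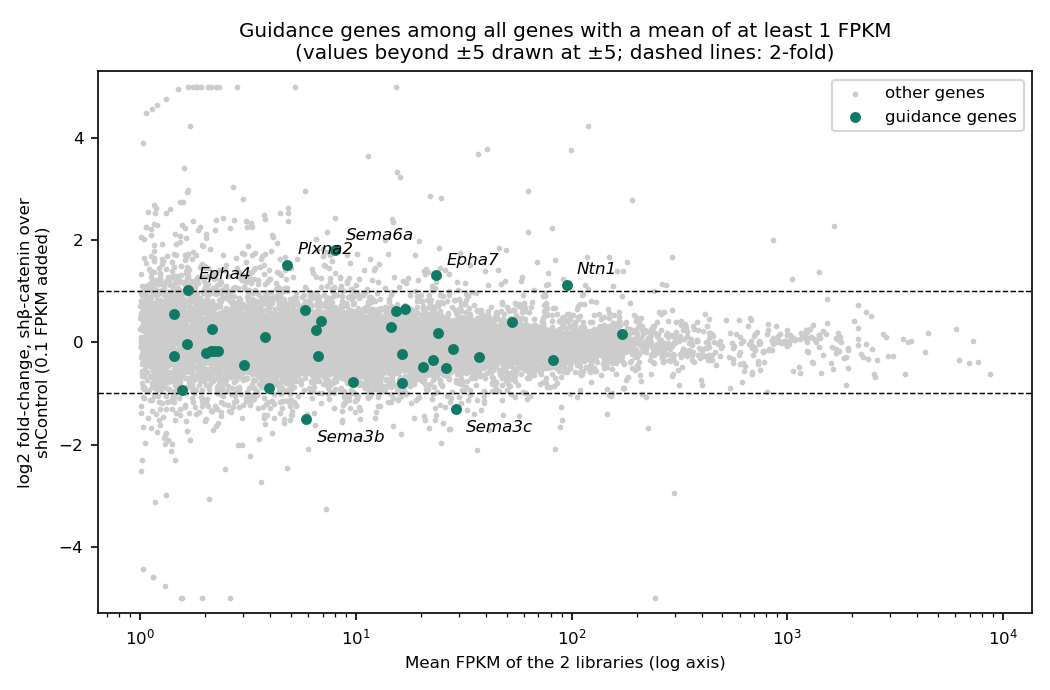
Log2 fold-change of shβ-catenin over shControl (0.1 FPKM added) against the mean FPKM on a log axis, for all genes with a mean of 1 FPKM or more (grey) and the 38 guidance genes (green). The 7 genes past the dashed lines of 2-fold are named, and the grey cloud narrows toward high levels.

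Class 3 semaphorins, the secreted class that binds neuropilins, were lower in sum, at 21.0 FPKM in shβ-catenin cells and 51.8 FPKM in shControl cells, a 2.47-fold lower value. The class held 7 genes, of which 2 had a mean of 1 FPKM or more. *Sema3c*, a cue for migrating neural crest and endothelial cells in the mouse, was listed at 16.7 FPKM in shβ-catenin and 41.4 FPKM in shControl cells (2.48-fold lower, log2 fold-change -1.31). *Sema3b*, a cue that is also known as a candidate tumour suppressor in human lung, was listed at 3.02 and 8.73 FPKM in the same order (2.89-fold lower, -1.50). *Sema3c* made up 79.4% of the class sum in shβ-catenin and 80.0% in shControl cells, so that both genes were lower while their proportion in the class hardly differed. *Sema3f*, a ligand that prefers neuropilin-2, stood at 0.856 and 1.09 FPKM and *Sema3g* at 0.320 and 0.461 FPKM. *Sema3a*, the founding repellent of the class, was near the floor at 0.121 and 0.101 FPKM, and *Sema3d* and *Sema3e* were listed at 0 in both libraries.

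The membrane-bound class 4 semaphorins were closer together, with a sum of 27.9 FPKM in shβ-catenin and 32.1 FPKM in shControl cells, and none of the 4 genes with a mean of 1 FPKM or more passed 2-fold. *Sema4b*, the most abundant of the class, was listed at 14.998 and 17.6 FPKM, and *Sema4c*, a ligand of plexin-B2, at 7.13 and 5.99 FPKM. *Sema4g* had the largest difference of the class, with 2.72 FPKM in shβ-catenin and 5.18 FPKM in shControl cells (1.90-fold lower). *Sema4f* was even at 1.62 and 1.66 FPKM. Further members known mainly from immune cells were under 1 FPKM in both libraries, *Sema4a* at 0.638 and 0.968 FPKM and *Sema4d* at 0.788 and 0.629 FPKM.

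Class 6 semaphorins, transmembrane ligands of class A plexins, went the other way. Their sum was 16.6 FPKM in shβ-catenin cells and 7.19 FPKM in shControl cells (2.30-fold higher). *Sema6a* held most of this difference, at 12.5 FPKM in shβ-catenin and 3.53 FPKM in shControl cells, 3.55-fold higher and the largest log2 fold-change among the 38 genes (1.80). It held 75.6% of the class sum in shβ-catenin and 49.1% in shControl cells. The other members differed less, *Sema6d* at 2.16 and 2.43 FPKM, *Sema6c* at 1.19 and 0.724 FPKM and *Sema6b* at 0.687 and 0.503 FPKM. Of the remaining classes, *Sema7a*, which is anchored by a glycolipid and binds integrins and plexin-C1, was listed at 0.300 and 0.111 FPKM, *Sema5b* at 0.0505 and 0.0210 FPKM, and *Sema5a* at 0 in both libraries.

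Plexins, the receptors that pass semaphorin signals to small GTPases, had nearly the same sum in both libraries, 145 FPKM in shβ-catenin and 147 FPKM in shControl cells, but their make-up differed. *Plxna2* was listed at 7.14 FPKM in shβ-catenin and 2.43 FPKM in shControl cells (2.93-fold higher, log2 fold-change 1.52), the single plexin of 7 past 2-fold. *Plxna4* stood at 20.7 and 13.1 FPKM (1.57-fold higher). *Plxna2* and *Plxna4* encode the plexins known to bind *Sema6a* in the mouse, so the ligand and both receptors were each higher in shβ-catenin cells, the ligand and *Plxna2* by more than 2-fold. *Plxna1* was listed at 15.98 and 12.99 FPKM and *Plxna3* at 1.29 and 1.58 FPKM.

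*Plxnb2*, the most abundant plexin, was lower, at 72.0 FPKM in shβ-catenin and 91.1 FPKM in shControl cells, and made up 49.7% and 61.9% of the plexin sum. *Plxnb1*, the receptor of *Sema4d*, was listed at 2.55 and 3.53 FPKM. *Plxnd1*, which can take up signals of class 3 semaphorins in endothelial cells, stood at 25.3 and 22.4 FPKM. *Plxnb3* was listed at 0 in shβ-catenin and 0.0162 FPKM in shControl cells, and *Plxnc1* at 0.0292 and 0.0121 FPKM. Both neuropilin genes, co-receptors of class 3 semaphorins and of VEGF, stayed within 2-fold. *Nrp1* was listed at 180 FPKM in shβ-catenin and 162 FPKM in shControl cells and *Nrp2* at 17.1 and 23.8 FPKM.

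**Figure D3:**
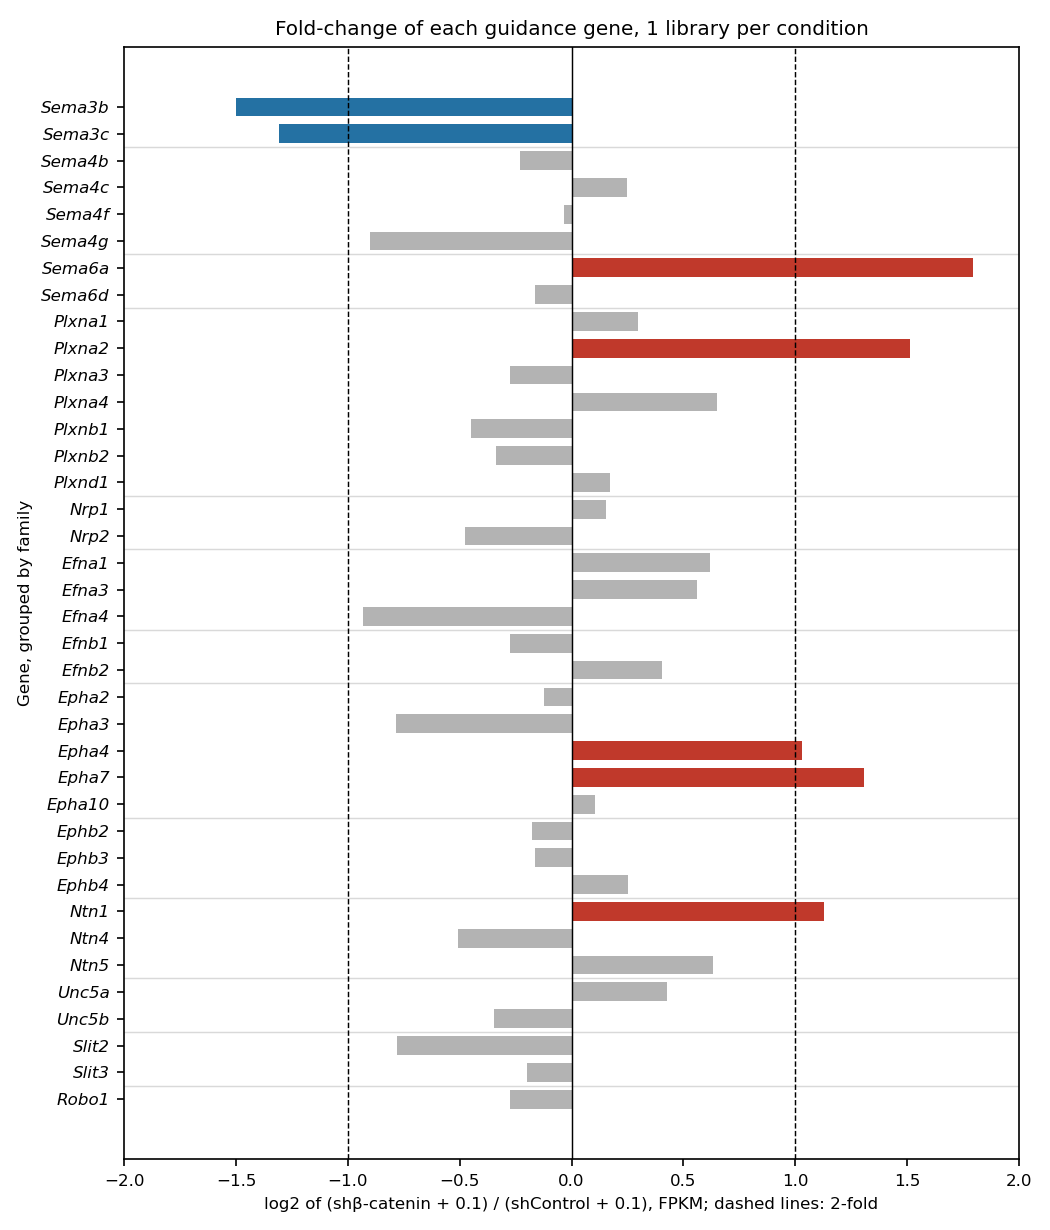
Log2 fold-change (0.1 FPKM added) of each of the 38 guidance genes, grouped by family, with red bars for the 5 genes more than 2-fold higher in shβ-catenin cells, blue bars for the 2 more than 2-fold lower and grey bars for the 31 between. Members of most families lie on both sides of 0, with *Sema3b* and *Sema3c* both lower and *Sema6a* reaching 1.80.

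Ephrins, the membrane-bound ligands of Eph receptors, were all within 2-fold among the 5 with a mean of 1 FPKM or more. *Efnb2*, a marker of arterial endothelium that fibroblasts also express, was the most abundant at 60.5 FPKM in shβ-catenin and 45.7 FPKM in shControl cells (1.33-fold higher). *Efnb1* was listed at 33.6 and 40.7 FPKM (1.21-fold lower). These transmembrane ephrins therefore differed in opposite directions by less than 2-fold, and *Efnb2* held 64.3% of the ephrin-B sum in shβ-catenin and 52.9% in shControl cells. Among the ephrin-A ligands, which are anchored by a glycolipid, *Efna1* was listed at 18.6 and 12.1 FPKM (1.54-fold higher) and *Efna3* at 1.72 and 1.13 FPKM. *Efna4* lay at the edge of the threshold, at 1.04 FPKM in shβ-catenin and 2.08 FPKM in shControl cells, 1.996-fold lower by the plain ratio and -0.93 on the log2 scale with 0.1 FPKM added. *Efna2* (0.748 and 0.207 FPKM) and *Efna5* (0.480 and 0.243 FPKM) were low, and *Efnb3* was listed at 0.0307 FPKM in shβ-catenin cells and 0 in shControl cells.

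EphA receptors were led by different genes in the libraries. *Epha7*, which has isoforms without a kinase domain, was listed at 33.6 FPKM in shβ-catenin and 13.5 FPKM in shControl cells (2.49-fold higher, log2 fold-change 1.31), and it held 42.3% of the EphA sum in shβ-catenin and 19.5% in shControl cells. *Epha2*, an Eph receptor common in epithelia and many tumours, was nearly even at 27.1 and 29.5 FPKM. It had the highest level of the family in shControl cells and came after *Epha7* in shβ-catenin cells. *Epha3*, a receptor of ephrin-A5 found in mesenchymal cells, was lower, at 11.98 and 20.7 FPKM (1.73-fold). *Epha4*, which binds ephrins of both classes, was listed at 2.27 FPKM in shβ-catenin and 1.06 FPKM in shControl cells (2.14-fold higher), and with 1 FPKM added in place of 0.1 its log2 fold-change was 0.67 in place of 1.03. *Epha10*, whose product lacks kinase activity, stood at 3.91 and 3.63 FPKM. The remaining EphA genes (*Epha1*, *Epha5*, *Epha6* and *Epha8*) were at most 0.310 FPKM in either library.

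EphB receptors were low and nearly even, with a sum of 6.48 FPKM in shβ-catenin and 6.67 FPKM in shControl cells. *Ephb2* was listed at 1.99 and 2.26 FPKM and *Ephb3* at 2.07 and 2.33 FPKM, so that these genes, known to be activated by β-catenin in the mouse intestine, were 1.14-fold and 1.13-fold lower. *Efnb1*, known to be held down there, was 1.21-fold lower as well. *Ephb4*, the partner of ephrin-B2, stood at 2.35 and 1.95 FPKM. *Ephb6*, a receptor without kinase activity, was listed at 0.0764 and 0.106 FPKM, and *Ephb1* at 0 in shβ-catenin and 0.0192 FPKM in shControl cells. Levels of EphB receptors were thus far under those of their ephrin-B ligands, which summed to 94.1 FPKM in shβ-catenin and 86.4 FPKM in shControl cells.

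Netrins had the highest sum among the secreted cues, 159 FPKM in shβ-catenin and 94.7 FPKM in shControl cells (1.68-fold higher). *Ntn1*, the netrin that attracts commissural axons in the embryo, was listed at 130 FPKM in shβ-catenin and 59.4 FPKM in shControl cells (2.19-fold higher, log2 fold-change 1.13), which placed it at rank 623 and rank 1539 of all genes by level. *Ntn4*, a netrin of basement membranes that binds laminin, differed the other way, at 21.7 and 30.8 FPKM (1.42-fold lower). The share of *Ntn1* in the netrin sum was 81.8% in shβ-catenin and 62.7% in shControl cells. *Ntn5* stood at 7.10 and 4.54 FPKM (1.56-fold higher) and *Ntn3* near the floor at 0.137 and 0.0284 FPKM.

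Both Unc5 receptor genes with a mean of 1 FPKM or more stayed within 2-fold. *Unc5b*, which can trigger apoptosis in the absence of netrin-1, was listed at 19.98 FPKM in shβ-catenin and 25.4 FPKM in shControl cells (1.27-fold lower). *Unc5a* stood at 7.89 and 5.85 FPKM (1.35-fold higher). *Unc5c* was below the filter and had the largest plain fold of the receptors above 0 in both libraries, at 0.924 FPKM in shβ-catenin and 0.222 FPKM in shControl cells (4.16-fold higher). *Unc5d* was listed at 0 in shβ-catenin and 0.0290 FPKM in shControl cells. *Unc5cl*, matched through its symbol, encodes a related death-domain protein rather than a netrin receptor and was listed at 0 in both libraries. Outside the symbol rule, *Neo1*, the gene of neogenin, was listed at 7.21 and 5.72 FPKM, and *Dcc*, the receptor that gives attraction to netrin-1, at 0.0141 FPKM in shβ-catenin cells and 0 in shControl cells.

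**Figure D4:**
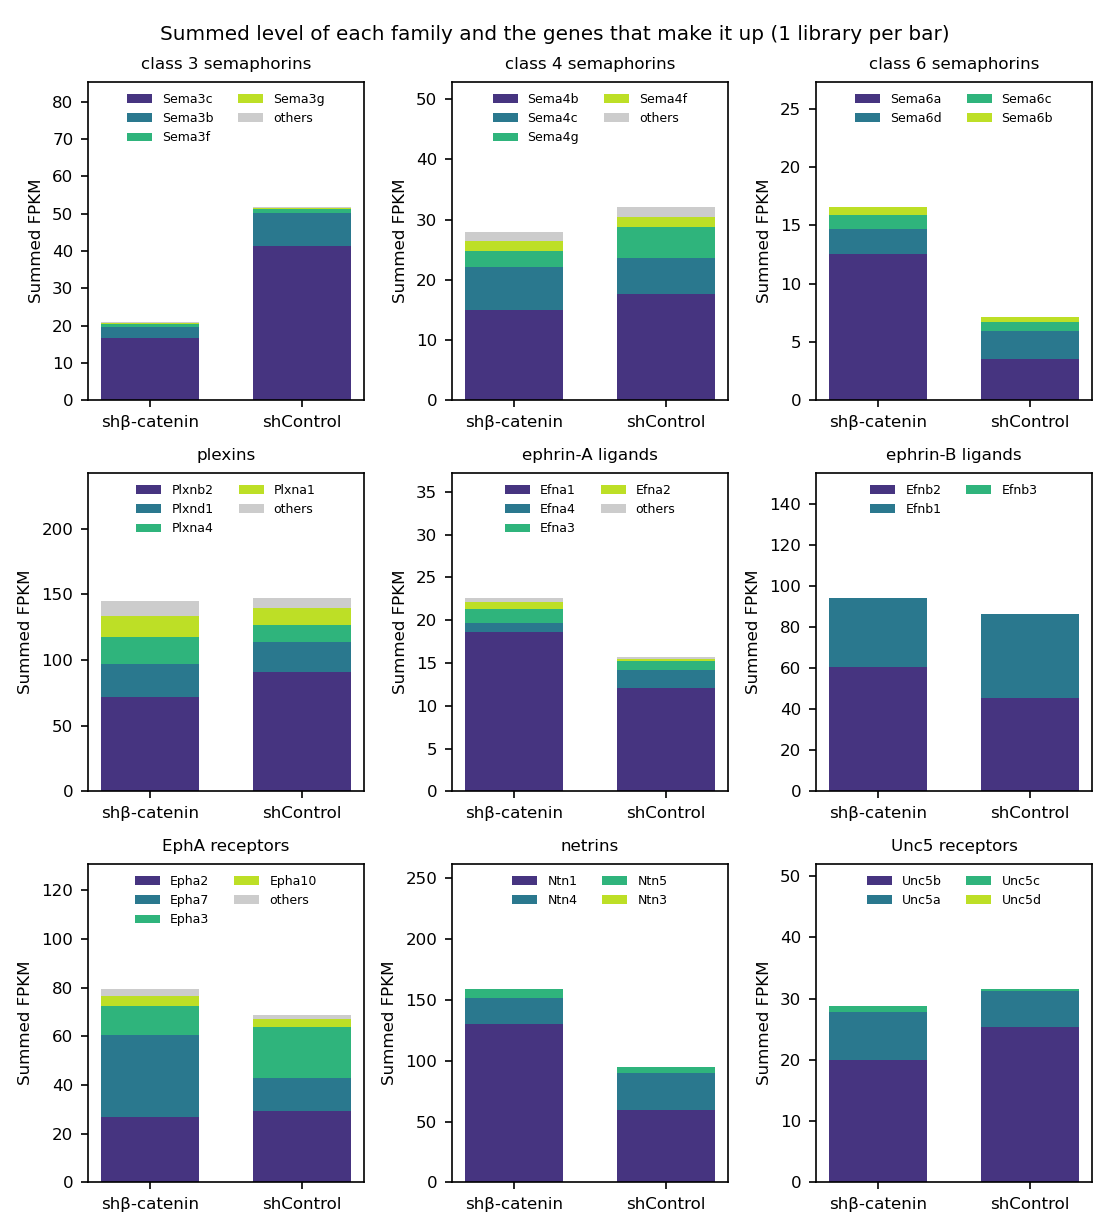
Summed FPKM of 9 families in the shβ-catenin library (left bar) and the shControl library (right bar), with colours for up to 4 leading genes of each family and grey for the others. Class 3 semaphorins have the lower bar in shβ-catenin cells and class 6 semaphorins and netrins the higher, through *Sema3c*, *Sema6a* and *Ntn1*, and *Epha7* takes a larger part of the EphA bar.

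Slits, the secreted repellents that bind Robo receptors, were lower in sum, at 8.98 FPKM in shβ-catenin and 14.4 FPKM in shControl cells, without passing 2-fold. *Slit2* was listed at 7.11 and 12.3 FPKM (1.73-fold lower) and *Slit3* at 1.86 and 2.16 FPKM (1.16-fold lower). *Slit1*, which is mainly neural in the mouse, was listed at 0 in both libraries. *Robo1* was the receptor that made up nearly the whole Robo sum, at 6.06 and 7.35 FPKM (1.21-fold lower). *Robo2* (0.0224 and 0.01005 FPKM) and *Robo3* (0.0720 and 0.01997 FPKM) were near the floor, and *Robo4*, the endothelial Robo, was listed at 0 in both libraries. All 3 Slit and Robo genes with a mean of 1 FPKM or more were lower in shβ-catenin cells, as were 6725 of all 13097 genes at that level.

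The precision of the low values was read from whole fragments, since read counts are not given in the tables. Genes with equal numbers of fragments share an FPKM ratio that is set by the depths of the libraries, and the commonest such ratio among low genes was 1.202 (shβ-catenin over shControl). Of the 20 guidance genes with a mean under 1 FPKM and above 0 in both libraries, 6 had a ratio within 0.002% of one that whole fragments can give, up to 60 in all, and 14 had none and so no interval. Among these 14, *Sema3a*, *Sema5b* and *Ephb6* lay close to such a ratio but outside the tolerance. Of all low genes 64.2% had such a ratio, and why fewer guidance genes did was not determined. For *Ntn3* the smallest fragments are 4 in shβ-catenin and 1 in shControl cells, and the exact Clopper-Pearson 95% interval of its ratio of 4.81 ran from 0.476 to 237. For *Efna2* and *Robo3* they are 3 and 1, with a ratio of 3.61 and an interval from 0.290 to 189. *Plxnc1*, with 2 and 1, had an interval from 0.125 to 142.

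*Sema6b*, at 25 and 22 fragments, had a ratio of 1.37 with an interval from 0.739 to 2.54, and *Sema3g*, at 15 and 26 fragments, a ratio of 0.694 with an interval from 0.342 to 1.36. All 6 intervals include a ratio of 1. At the totals of *Ntn3*, *Efna2*, *Robo3* and *Plxnc1*, with fragments in both libraries, no interval could have left it out, so those 4 say nothing for or against a difference. The intervals cover counting error only, and multiples of the smallest fragments would narrow them. Of the 20 low genes, 15 had the higher value in shβ-catenin cells and 5 in shControl cells. Among all 5649 such genes, 63.5% had the higher value in shβ-catenin cells. The 5 genes listed at 0 in a single library (*Plxnb3*, *Efnb3*, *Epha6*, *Ephb1* and *Unc5d*) reached at most 0.0307 FPKM in the other, and no fold is given for them.

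**Figure D5:**
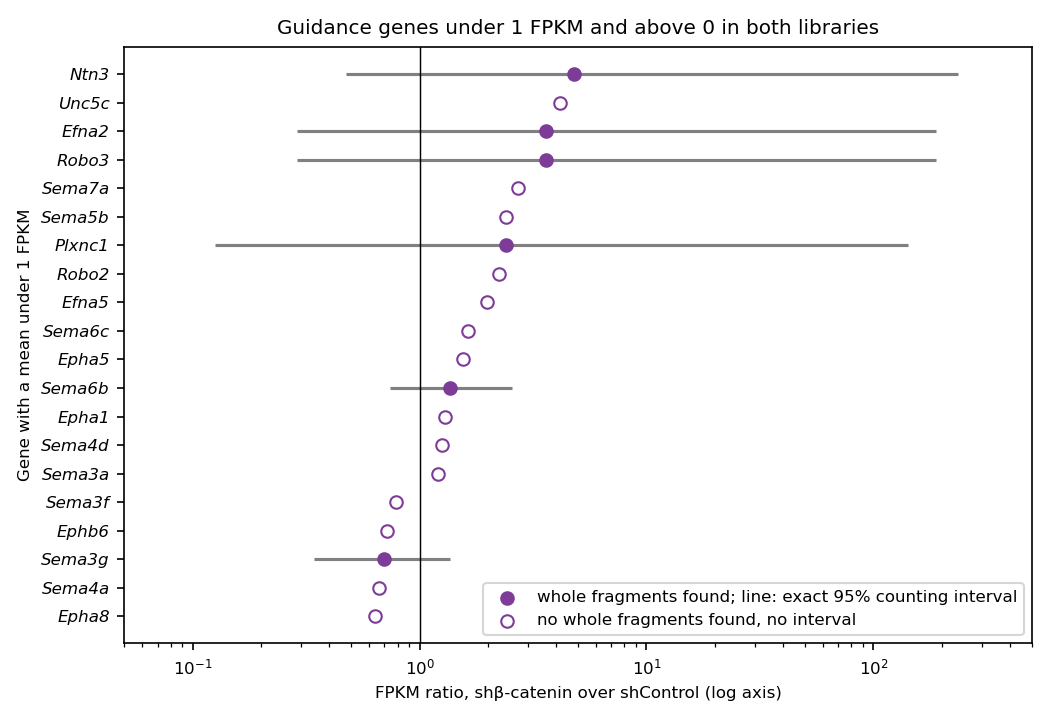
FPKM ratio of shβ-catenin over shControl on a log axis for the 20 guidance genes with a mean under 1 FPKM and above 0 in both libraries, with filled points and exact 95% counting intervals for the 6 whose ratio fits whole fragments and open points for the other 14. Every interval drawn crosses the line at 1, and that of *Sema6b* is the narrowest.

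Genes that work with these cues but lie outside the symbol rule were set beside them in 3 lists. Of 45 intracellular effectors with a mean of 1 FPKM or more (51 measured), 1 was more than 2-fold higher (2.22%, beside 3.27% of all genes) and 2 were more than 2-fold lower (4.44%, beside 2.05%). In this list 21 genes were higher and 24 lower, and the median log2 fold-change was -0.05. Some of the 21 were under 1 FPKM in shControl cells and passed the filter through shβ-catenin cells alone, which fixed their direction. With at least 1 FPKM in both libraries 42 effectors remained, with a median of -0.07. *Dpysl4*, a collapsin response mediator that acts behind semaphorin receptors, was listed at 3.27 FPKM in shβ-catenin and 1.23 FPKM in shControl cells (2.66-fold higher). *Ngef*, the gene of ephexin, an exchange factor that binds EphA receptors, was listed at 5.17 and 12.2 FPKM (2.37-fold lower), and *Chn2*, a Rac GTPase-activating protein, at 6.65 and 13.8 FPKM (2.07-fold lower).

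Among semaphorin co-receptors and partners, 9 of 18 reached a mean of 1 FPKM, 4 of them higher and 5 lower (median -0.01). *Met*, the hepatocyte growth factor receptor, which associates with class B plexins, was the single gene past 2-fold, at 36.0 FPKM in shβ-catenin and 13.1 FPKM in shControl cells (2.75-fold higher). It is 11.1% of this short list, beside 3.27% of all genes more than 2-fold higher. In the list of netrin and Slit partners, 11 of 18 measured genes reached a mean of 1 FPKM. Of these 7 were higher and 4 lower, and the median was 0.15. None was past 2-fold, beside 5.32% of all genes in either direction.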

How the data were processed

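RNA of 1 shβ-catenin and 1 shControl library of NSFs was used as deposited. From stranded mRNA libraries the authors obtained 75 bp paired reads, which they aligned with TopHat (version 2.0.13), using Bowtie2 (version 2.2.3) and SAMtools (version 0.1.19). The deposited FPKM values are theirs, from Cufflinks (version 2.2.1). The gene annotation, the depth and any filter are not given in the sources used here. Reads shared between related genes may be split by this counting.

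Genes were matched by symbol (Sema3 to Sema7, Plxna to Plxnd, Nrp1 and Nrp2, Epha and Ephb, Efna and Efnb, Slit, Robo, Ntn, Unc5a to Unc5d). The tables give no coordinates. Of the 69 symbols, 67 were found in the RefSeq gene table of another assembly, and no sequence is shown. The members and lists were chosen with earlier results of these data known.

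To each FPKM value 0.1 was added before the log2 ratio was taken, and genes were counted at a mean of 1 FPKM or more and beyond 2-fold. Every gene matched by the rule may be named, and from the partner lists those past 2-fold; Neo1, Dcc and the markers named were chosen after their values were seen. Whole fragments were accepted where the FPKM ratio matched within 0.002% at the relative depth; 64.2% of 5649 low genes had them, and 0.655% with the depth shifted by 1.4%. The methods were tested on simulated counts with a fixed length per gene and no isoforms or shared reads, so effects of these were not covered. Alternatives were another pseudocount, scaling, filter or threshold. Scripts ran in Python (version 3.11.15; pandas 2.3.3, numpy 2.4.6, matplotlib 3.10.9 and scipy 1.17.1). A further marker gene is not reported here.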

Additional observations from a re-analysis of the deposited data

How the results depend on the processing

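The counts of guidance genes past 2-fold were 5 higher and 2 lower with a pseudocount of 0.01, with median ratio or upper quartile scaling (which shift every log2 fold-change by 0.02 and 0.03) and with at least 1 FPKM in both libraries, and 4 and 2 with a pseudocount of 1, where *Epha4* fell short at 0.67. With the filter at a mean of 5 FPKM these counts were 3 and 2 of 24 genes, since *Plxna2* and *Epha4* were no longer counted. Past 2-fold in either direction were 2.74% of all genes from 5 to 20 FPKM and 2.67% at 20 FPKM or more. Without the filter they were 7 and 2 of the 63 genes above 0 in a library, through *Efna2* and *Unc5c*. *Unc5c* had no counting interval, and that of *Efna2* (0.290 to 189) could not have left out a ratio of 1. The share over all genes without the filter is not given here, so the higher count adds no support. At a 4-fold threshold 0 were higher and 0 lower. Intracellular effectors more than 2-fold higher numbered 2 with a pseudocount of 0.01, 0 with a pseudocount of 1 and 0 with the filter at 5 FPKM, and those lower numbered 1 with a pseudocount of 1. Without the filter 1 netrin or Slit partner was higher and 1 semaphorin partner lower. Shares over all genes with another pseudocount or without the filter are not given here. These counts of effectors and partners therefore show only how they depend on the setting. No sign of a guidance gene among the 38 changed with scaling. No paired analysis was possible because each condition has 1 library. The depth is unknown, so the counting error of genes above 1 FPKM is unknown too, and no difference was checked in a second culture or with a second hairpin.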
